A study of Arabidopsis thaliana with 4 samples.

Results

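The genes described here are 39 listed immunity loci of Arabidopsis thaliana, of 33602 loci counted in each library. They cover the synthesis, sensing and output of salicylic acid (SA), the recognition of microbial and damage patterns, and defence at the cell surface. The rule took every row whose locus identifier is on the list, without regard to its counts, and all 39 were found. The list itself was drawn up with earlier results of these data known. Shares of members set beside those of all genes therefore describe the list and are not an independent comparison. A filter on low counts passed 36 of them to the test; ALD1, FMO1 and PROPEP1 were too low.

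The study sorted protoplasts from flowers at the abscission zone, where floral organs detach. Residuum cells (RECs) remain on the receptacle and secession cells (SECs) leave with the shed organ. There were 2 REC and 2 SEC libraries of polyA RNA, all from Col-0 plants with the ebp1 mutation that carry a nuclear GFP-GUS reporter driven by QRT2's promoter; abscission zone cells use that promoter, and it guided the sort. The genotype labels number that promoter differently in every sample, from QRT2 to QRT5, whereas the description of the series gives QRT2 alone, and the mutation stands in the titles and the description but not in the genotype labels. No wild-type library is among the 4, so the comparison is of RECs with SECs within the mutant and does not show what the mutation changes. Plant age is not given in the labels, and whether the replicates are separate plants is not stated, so the p-values reflect only how far these libraries spread, which may be technical.

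Plants detect microbes with receptor kinases at the plasma membrane. FLS2 binds bacterial flagellin, EFR binds a bacterial elongation factor, CERK1 with LYK5 senses fungal chitin, and PEPR1 and PEPR2 sense Pep peptides that the plant cuts from PROPEP precursors upon damage. The signal passes through kinases such as BIK1 to calcium, peroxide and MAP kinases, and early output genes such as FRK1 and NHL10 are then transcribed. In a slower branch ICS1 makes isochorismate in the chloroplast, which EDS5 exports and PBS3 turns toward SA; NPR proteins sense SA and, with TGA factors, control PR genes. Defence genes are known to be active in abscission zones, where separation exposes fresh surfaces.

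Counts in genes ran from 12191718 to 16102115 per library. Levels are given as CPM, counts scaled to a common library size after TMM, a method that equalises the bulk of genes between libraries. Replicates were further apart in SECs than in RECs: the chi-square of the counts of the pair, divided by its degrees of freedom, was 70.8 in SECs and 5.39 in RECs. Between the SEC libraries the median log2 difference, replicate 1 minus replicate 2, was 0.67 for transcripts under 1000 nt and −0.97 for those over 3000 nt, where the REC pair had 0.07 and −0.04. The median log2 fold change, REC minus SEC, also differed by length, at −0.25 under 1000 nt and 0.24 over 3000 nt. The sort reporter's own gene QRT2 was read at 459 to 694 CPM, and the abscission receptor gene HAE at 160 to 460 CPM. The 8 abscission zone genes summed to 1555 and 1720 CPM in the REC pair, 2816 and 3026 CPM in the SEC pair. Of this sum KNAT1 alone gave 476 and 508 CPM in the REC pair, 1924 and 1635 CPM in the SEC pair. IDA, ADPG2 and KNAT1 were called higher in SECs (3 of 8, or 37.5%, against 2.18% of all genes). Both SEC libraries were above both REC libraries for 5 of the 8 (62.5%, against 28.2% of all genes). HAE had the reverse order, and QRT2 and HSL2 overlapped. In such bulk libraries fewer cells of a type and less RNA per cell cannot be told apart. Most markers of other cells, mesophyll genes apart, were low or at 0. FAMA of guard cells, TGG2 of myrosin cells, APL of phloem, XCP2 of xylem and CRC and SWEET9 of nectaries had 0 counts in all libraries. The 4 guard and myrosin cell genes summed to 1.335 and 2.67 CPM in the REC pair and to 0 in both SEC libraries. KAT1 of guard cells, with 10 and 40 counts in RECs and 0 in SECs, was not called (edgeR adjusted p = 0.101). The 4 xylem genes summed to at most 2.95 CPM. The phloem list of 4 genes summed to 9.27 and 9.34 CPM in the REC pair, 3.32 and 2.38 CPM in the SEC pair, and the 4 pollen genes to between 15.7 and 16.4 CPM everywhere. The 5 mesophyll genes, which green cells of many kinds transcribe, summed to 4588 and 3501 CPM in the REC pair, 3490 and 2803 CPM in the SEC pair. Both REC libraries were above both SEC libraries for 4 of these 5 (80%, against 29.8% of all genes), and RBCS1A overlapped. CA1, a carbonic anhydrase gene, was the only one called higher in RECs (20%, against 0.495% of all genes). It was 11.6-fold higher, at 166 and 79.1 CPM (RECs) versus 9.57 and 11.6 CPM (SECs) (edgeR adjusted p = 0.0341). The part of these cells in the results was not tested.

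**Figure D1:**
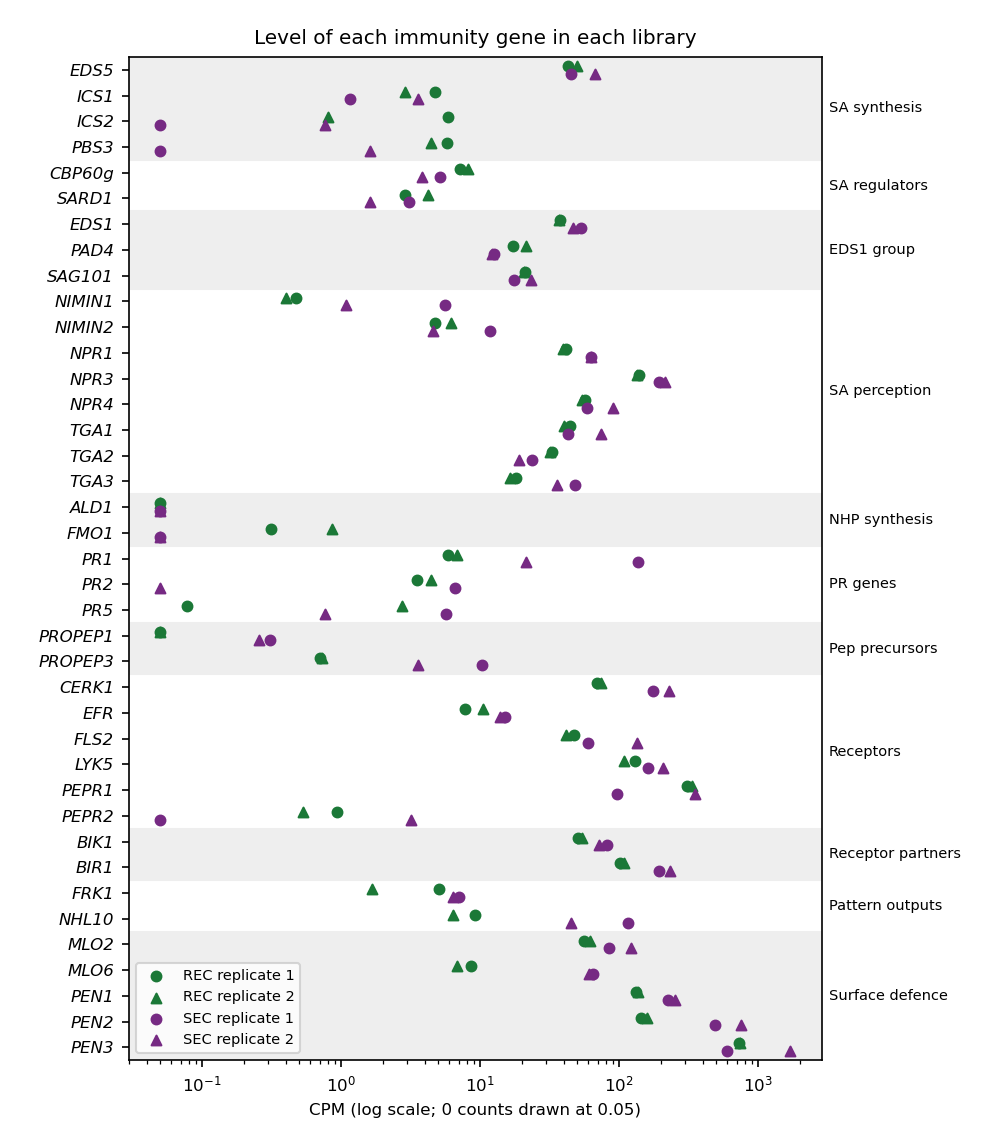
CPM of each of the 39 genes (log scale) in REC replicates 1 and 2 (green circle and triangle) and SEC replicates 1 and 2 (purple circle and triangle), ordered by role. Libraries with 0 counts are drawn at 0.05; for most receptor, output and surface genes the purple points lie to the right of the green ones.

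Of the 36 genes tested, 4 passed an adjusted p of 0.05 with more reads in SECs, namely the surface defence genes MLO6 and PEN2, the chitin receptor gene CERK1 and the pattern output gene NHL10. None was called higher in RECs. These 4 are 11.1% of the members, against 2.18% of all 18384 genes tested called higher in SECs and 0.495% called higher in RECs. At an unadjusted p under 0.05, 16 members were on the SEC side, 44.4% where all genes gave 14.1%, and 0 were on the REC side, where all genes gave 9.46%. Both SEC libraries stood above both REC libraries for 20 members (55.6%, against 28.2% of all genes), and the reverse held for 5 members (13.9%, against 29.8%). The median log2 fold change, REC minus SEC (called the log2 ratio beside single genes), was −0.62 over the members and 0.02 over all genes. It was negative for 26 of the 36 members and for 48.5% of all genes. With the length trend of each library removed, 14 members were higher in SECs (38.9%, against 9.30% of all genes) and 0 in RECs (4.65% of all genes). DESeq2 called 9 in SECs (25%, against 8.56%) and 0 in RECs (4.15% of all genes), and edgeR without the filter on low counts called 7 (against 3.61%) and 0 (against 1.21%). Upper-quartile scaling left 2 in SECs (against 1.38%) and 0 in RECs (0.473%), and limma voom 3 (against 1.75%) and 0 (0.495%). The SEC pair alone sets the spread without REC replicate 1, where 2 members passed in SECs (against 0.448% of all genes; 0.146% in RECs), and without REC replicate 2, where 4 passed (against 1.30%; 0.397% in RECs). The calls rose to 20 when either SEC library was left out, where the REC pair alone sets it. Those last fits called 20.0% and 26.1% of all genes higher in SECs, and also called 5 and 7 members higher in RECs, where they called 18.7% and 29.4% of all genes. The 5 were CBP60g, PAD4, PBS3, PR2 and TGA2, and the 7 were ICS1, ICS2, PAD4, PBS3, PEN3, PEPR1 and TGA2. The sum of 10 genes that respond rapidly to wounding and stress lay on the same side, at 1859 and 1760 CPM in the REC pair, 3197 and 2418 CPM in the SEC pair. Both SEC libraries were above both REC libraries for 7 of these 10 genes (70%, against 28.2% of all genes). RRTF1 had the reverse order, and ZAT10 and CYP94B3 overlapped. None of the 10 was called by edgeR (0%, against 2.18% of all genes in SECs). On the SEC side 5 had an unadjusted p under 0.05 (50%, against 14.1%). The part of these 10 genes in the result was not tested.

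**Figure D2:**
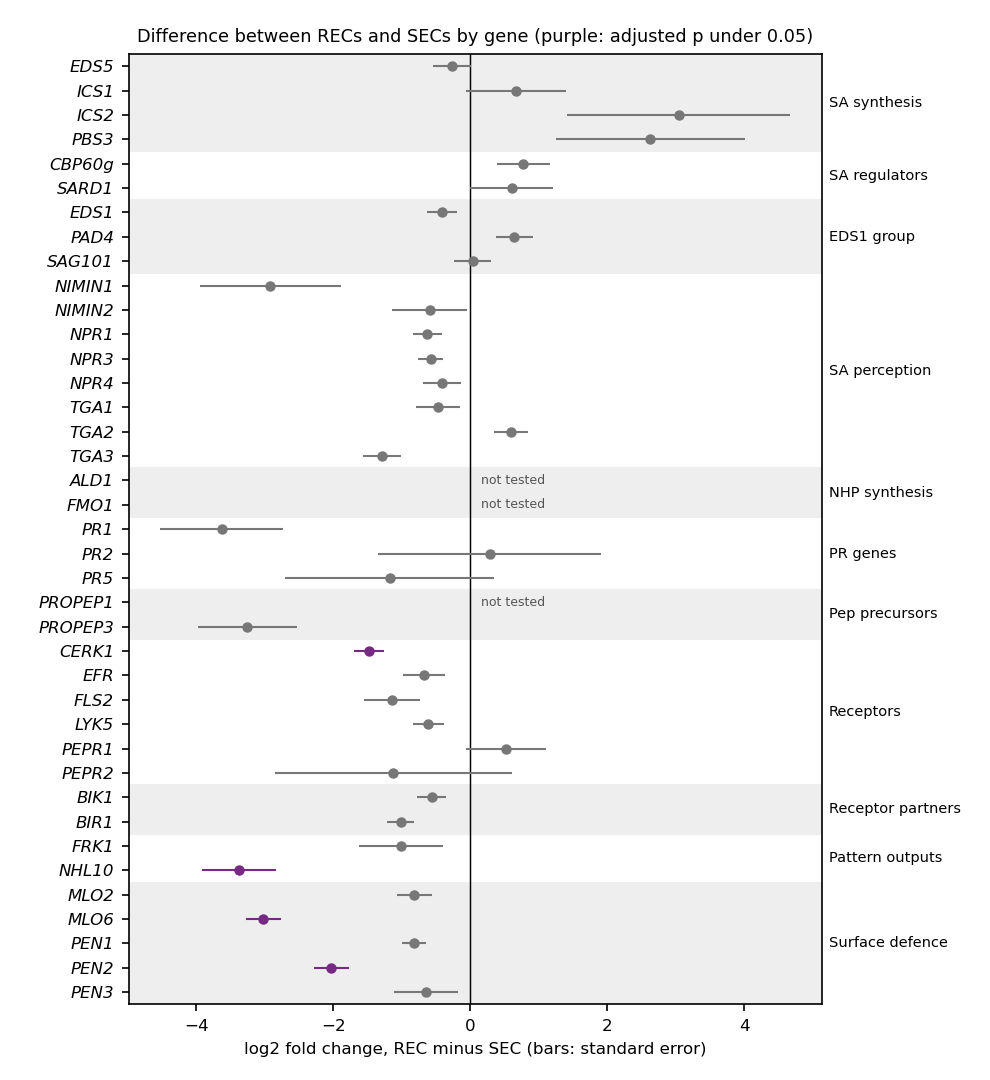
Log2 fold change, REC minus SEC, of each gene with its standard error from edgeR; negative values are higher in SECs. The 4 genes past the threshold (purple) lie on the SEC side, between −3.38 and −1.49. Of the 36 values 26 are negative, where 48.5% of all genes tested are.

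The stretches upstream of the 4 called genes are shown because WRKY factors, which act below pattern receptors, bind the W box (searched as TTGACC and TTGACT on both strands), and TGA factors bind TGACG. That of PROPEP3 was added after its motifs were counted, as the member with the most W boxes. Each stretch ends at the base before the annotated transcript start in RefSeq TAIR10.1, whose nuclear chromosomes are those of TAIR10; W boxes are in capitals and the sequence is read 5′ to 3′ on the gene's strand. The CERK1 stretch stops at the next gene, AT3G21640.
MLO6 (AT1G61560), chr1:22712290-22712539, minus strand: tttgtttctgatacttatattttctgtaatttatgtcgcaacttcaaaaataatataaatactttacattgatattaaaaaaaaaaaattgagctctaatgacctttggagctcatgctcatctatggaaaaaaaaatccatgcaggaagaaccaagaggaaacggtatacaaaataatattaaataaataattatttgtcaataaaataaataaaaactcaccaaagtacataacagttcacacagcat
PEN2 (AT2G44490), chr2:18364402-18364651, plus strand: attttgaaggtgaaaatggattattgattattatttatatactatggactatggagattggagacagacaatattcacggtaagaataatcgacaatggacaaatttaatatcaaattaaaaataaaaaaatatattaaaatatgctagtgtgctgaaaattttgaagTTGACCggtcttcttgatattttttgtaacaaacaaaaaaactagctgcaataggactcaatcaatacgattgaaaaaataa
CERK1 (AT3G21630), chr3:7618672-7618850, minus strand: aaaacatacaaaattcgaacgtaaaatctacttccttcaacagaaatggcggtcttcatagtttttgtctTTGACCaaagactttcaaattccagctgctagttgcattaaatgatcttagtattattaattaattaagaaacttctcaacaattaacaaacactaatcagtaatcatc
NHL10 (AT2G35980), chr2:15110242-15110491, plus strand: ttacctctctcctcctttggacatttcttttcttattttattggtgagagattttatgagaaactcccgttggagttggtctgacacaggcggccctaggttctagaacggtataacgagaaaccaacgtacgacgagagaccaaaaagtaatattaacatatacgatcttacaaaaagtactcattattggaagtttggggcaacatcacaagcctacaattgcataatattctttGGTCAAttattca
PROPEP3 (AT5G64905), chr5:25939312-25939561, plus strand: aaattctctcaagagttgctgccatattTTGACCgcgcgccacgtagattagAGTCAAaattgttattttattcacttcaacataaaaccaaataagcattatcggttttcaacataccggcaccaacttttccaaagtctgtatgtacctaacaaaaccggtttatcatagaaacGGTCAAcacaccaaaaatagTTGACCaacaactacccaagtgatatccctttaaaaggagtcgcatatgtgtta
PEN2, CERK1 and NHL10 each held 1 W box in 250 bases, MLO6 held 0 and PROPEP3 held 4. Over all 39 members, 16 upstream stretches of 250 bases held a W box (41.0%), as did 28.0% of the 32834 stretches of all genes. TGACG stood in 8 of the 39 (20.5%), against 18.2% of all, and in 0 of the 4 called genes. The motifs shared no base in any member, and a match describes the letters only.

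Of the 5 surface defence genes, 2 were higher in SECs, 3 did not pass, and all 5 log2 fold changes were negative. MLO6 encodes a membrane protein of the MLO family, whose loss in Arabidopsis, together with MLO2 and MLO12, gives resistance to powdery mildew. It stood at 8.56 and 6.87 CPM in the REC pair, 64.4 and 61.1 CPM in the SEC pair. Both SEC libraries were alike and far above both REC libraries. It was 8.13-fold higher in SECs (log2 ratio −3.02 ± 0.26 SE, edgeR adjusted p = 0.0267), the smallest p of the list, and it was called in all 10 alternative fits. An antisense gene, AT1G61562, overlaps MLO6 over 1114 nt in RefSeq, is not among the loci counted, and cannot be told apart from it without strand.

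PEN2, a glucosidase that cleaves indole glucosinolates at sites of fungal entry, had 143 and 160 CPM in the REC pair, 486 and 748 CPM in the SEC pair. The groups did not overlap. It was 4.08-fold higher in SECs (log2 ratio −2.03 ± 0.26 SE, edgeR adjusted p = 0.0359); leaving out REC replicate 1 gave an edgeR adjusted p of 0.0868. MLO2, a relative of MLO6, had 55.5 and 62.1 CPM in the REC pair, 85.2 and 122 CPM in the SEC pair (log2 ratio −0.82 ± 0.26 SE, edgeR adjusted p = 0.138). PEN1, a syntaxin that delivers vesicles to the point of attack, had 133 and 136 CPM in the REC pair, 225 and 250 CPM in the SEC pair (log2 ratio −0.82 ± 0.18 SE, edgeR adjusted p = 0.0771). The REC and SEC libraries of each stood apart without passing the test, although with the length trend removed both passed (edgeR adjusted p = 0.0171 for MLO2 and 0.0208 for PEN1), and PEN1 also by DESeq2 (0.00984). PEN3, a transporter that exports the products of the PEN2 pathway, had 726 and 744 CPM in the REC pair, 601 and 1701 CPM in the SEC pair. Its groups overlapped, because the SEC libraries lay on either side of the RECs. Its transcript is 4930 nt long, in the length class in which SEC replicate 1 read low. Its log2 fold change of −0.65 (± 0.47 SE, edgeR adjusted p = 0.468) moved to −1.21 when SEC replicate 1 was left out and to 0.30 when SEC replicate 2 was, each past the threshold and in opposite directions, and with the length trend removed it was −0.84 and past the threshold (edgeR adjusted p = 0.0182).

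**Figure D3:**
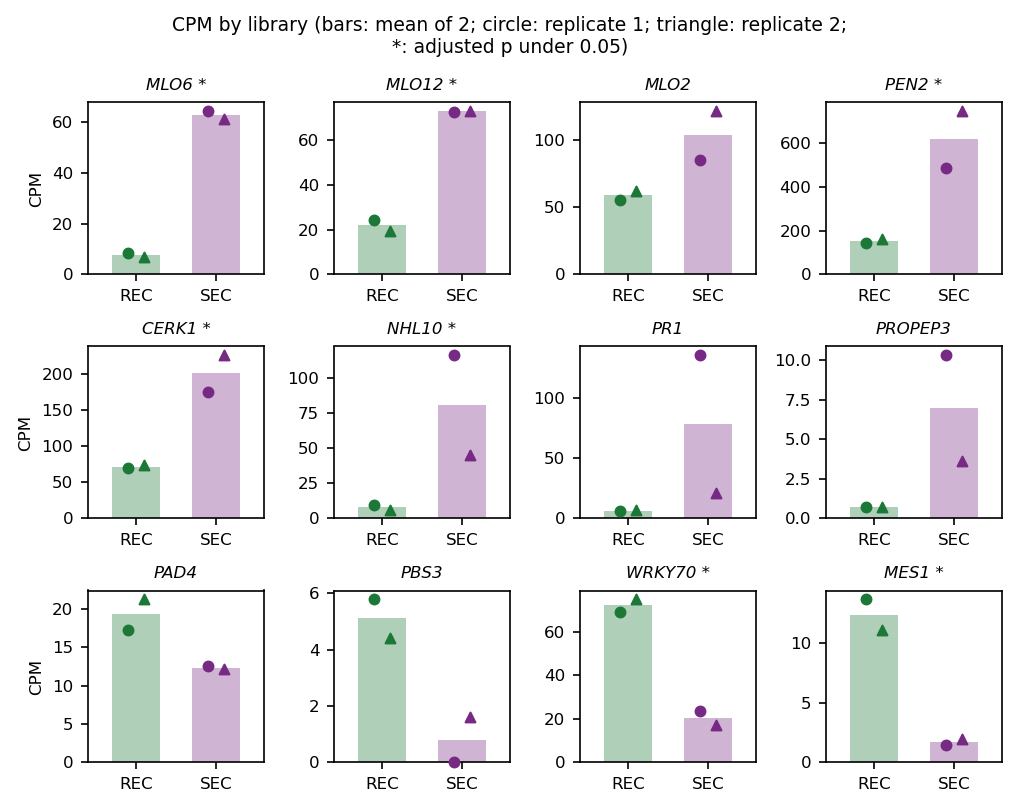
CPM of 9 members and of the related genes MLO12, WRKY70 and MES1 in each library, with bars at the mean of 2 (circle, replicate 1; triangle, replicate 2; every axis starts at 0). MLO6, PEN2, CERK1, NHL10 and MLO12 are called higher in SECs and WRKY70 and MES1 higher in RECs; the SEC pair of PR1, PROPEP3 and NHL10 is spread widely.

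Among the 6 pattern receptor genes, CERK1 passed the test and 5 did not. CERK1, the kinase that signals chitin, stood at 69.5 and 74.1 CPM in the REC pair, 175 and 227 CPM in the SEC pair. Every SEC value was above every REC value. The gene was 2.80-fold higher in SECs (log2 ratio −1.49 ± 0.22 SE, edgeR adjusted p = 0.0409). In edgeR fits that left out REC replicate 1 or REC replicate 2 it no longer passed (adjusted p = 0.418 and 0.262), nor with upper-quartile scaling (0.0505). LYK5, which binds chitin with high affinity and works with CERK1, had 131 and 108 CPM in the REC pair, 160 and 206 CPM in the SEC pair (log2 ratio −0.62 ± 0.23 SE, edgeR adjusted p = 0.184).

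FLS2 (AT5G46330), the flagellin receptor, had 47.1 and 41.4 CPM in the REC pair, 60.2 and 135 CPM in the SEC pair. Both SEC libraries were above the RECs, but they were far from each other. FLS2 did not pass (log2 ratio −1.14 ± 0.41 SE, edgeR adjusted p = 0.18), and it was past the threshold with the length trend removed, as was LYK5. Its log2 ratio was −1.61 when SEC replicate 1 was left out and −0.43 when SEC replicate 2 was, both past the threshold. FLS2 shares 172 nt with AT5G46340 on the other strand. EFR had 7.77 and 10.5 CPM in the REC pair, 15.2 and 14.0 CPM in the SEC pair (log2 ratio −0.68 ± 0.31 SE, edgeR adjusted p = 0.269). The FLS2 and EFR transcripts are 4250 and 4306 nt long. SEC replicate 1 minus SEC replicate 2 was −1.165 for FLS2 but 0.119 for EFR on the log2 scale. PEPR1, a Pep receptor, had 308 and 337 CPM in the REC pair, 96.65 and 353 CPM in the SEC pair. SEC replicate 1 minus SEC replicate 2 was −1.87 on the log2 scale, the RECs fell between them, and its log2 fold change of 0.52 (± 0.58 SE, edgeR adjusted p = 0.64) became −0.13 without SEC replicate 1 and 1.75, past the threshold, without SEC replicate 2. PEPR2 had 12 and 8 counts in the REC pair, 0 and 50 in the SEC pair.

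Levels per transcript length (TPM) set receptors beside each other but do not remove the length trend between the SEC libraries. The transcripts of CERK1 and LYK5, at 2181 and 2774 nt, are shorter than those of FLS2 and EFR, at 4250 and 4306 nt. The part of length in the order of receptors was not tested. In RECs the mean was 142 TPM for PEPR1, 72.6 for LYK5, 55.6 for CERK1, 17.6 for FLS2, 3.58 for EFR and 0.335 for PEPR2. In SECs CERK1 was at 112 and 169 TPM, LYK5 at 80.7 and 120 TPM, and PEPR1 at 35.3 and 149 TPM, so these 3 receptors overlapped there. FLS2 had 19.8 and 51.5 TPM in SECs, and EFR 4.94 and 5.26 TPM. CERK1 and LYK5, the chitin receptor genes among the members, thus exceeded FLS2 and EFR in TPM in both cell types. This does not extend to LYK4, a related LYK gene outside the members. LYK4 averaged 1.28 TPM in RECs and 5.66 TPM in SECs, below FLS2 in both.

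**Figure D4:**
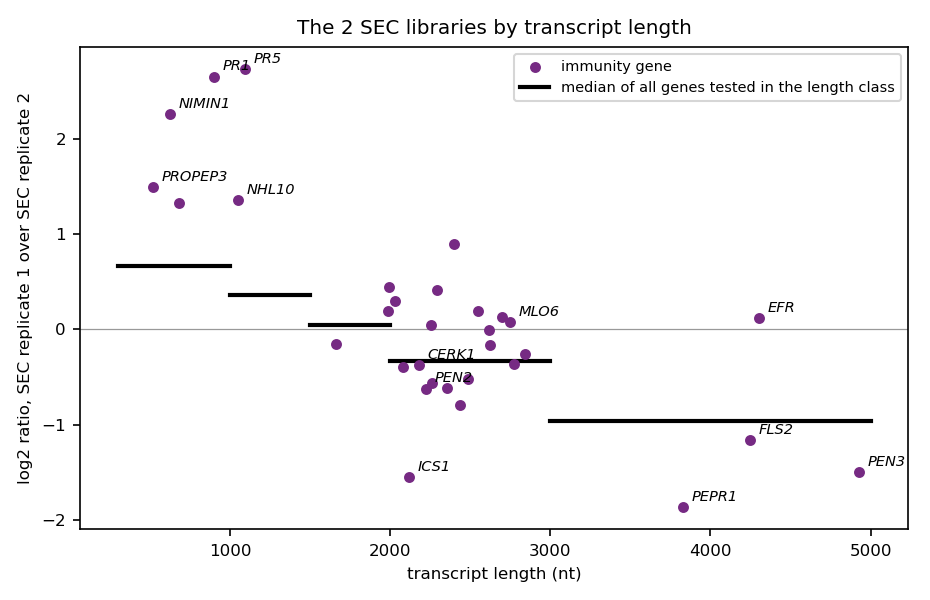
Log2 difference between the SEC libraries (replicate 1 minus replicate 2) against transcript length for the 32 tested members with a count in every library (points), with the median of all tested genes in 5 length classes (black lines, the first and last drawn to 300 and 5000 nt). Short members such as PR1, PR5 and NIMIN1 read higher in SEC replicate 1, and long ones such as PEPR1 and PEN3 read lower. EFR, at 4306 nt, did not read lower (0.12).

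Just below the receptors, neither gene tested passed. BIR1, a receptor kinase that restrains immunity by binding BAK1, had 102 and 109 CPM in the REC pair, 194 and 232 CPM in the SEC pair (log2 ratio −1.02 ± 0.20 SE, edgeR adjusted p = 0.0625). Both SEC values were above both REC values, and BIR1 passed by DESeq2 (adjusted p = 0.00158) and with the length trend removed (0.0125). BIK1, the cytoplasmic kinase that several receptors share, had 50.5 and 53.9 CPM in the REC pair, 82.5 and 71.9 CPM in the SEC pair (log2 ratio −0.57 ± 0.21 SE, edgeR adjusted p = 0.191).

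The output gene NHL10, used as a marker of early pattern responses, stood at 9.27 and 6.34 CPM in the REC pair, 117 and 45.4 CPM in the SEC pair. Its SEC values were well above its REC values but differed from each other. It was 10.4-fold higher in SECs (log2 ratio −3.38 ± 0.54 SE, edgeR adjusted p = 0.0469). With the length trend removed its log2 ratio was −3.14. The log2 fold change was −2.55 without SEC replicate 1, still past the threshold, and the call was lost by limma voom (adjusted p = 0.0634) and with upper-quartile scaling (0.0547). FRK1, a receptor kinase gene induced by flagellin and the other early output marker here, had 5.03 and 1.67 CPM in the REC pair, 7.03 and 6.42 CPM in the SEC pair (log2 ratio −1.01 ± 0.62 SE, edgeR adjusted p = 0.387). Its reads are uncertain over 175 nt shared with AT2G19180, an antisense neighbour counted at 330 and 404 in RECs and at 1092 and 902 in SECs.

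Neither Pep precursor on the list passed the test. PROPEP3 had 9 and 11 counts in the REC pair, 134 and 56 in the SEC pair, or 0.707 and 0.734 CPM (RECs) versus 10.3 and 3.6 CPM (SECs). The groups did not overlap. The log2 ratio was −3.26 ± 0.72 SE (edgeR adjusted p = 0.079). Leaving out SEC replicate 1 moved it to −2.31 and leaving out SEC replicate 2 to −3.81. PROPEP3 passed by DESeq2 (adjusted p = 0.00356). With the length trend removed it passed at a smaller log2 ratio of −2.81 (edgeR adjusted p = 0.0314). PROPEP1 had 0 counts in both REC libraries and 4 in each SEC library, at least 2.59-fold higher in SECs when the RECs are set at 3 counts over the group. This is too few counts to test.

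None of the 4 genes of SA synthesis passed the test. ICS1 (AT1G74710), the main isochorismate synthase gene of induced SA, had 4.71 and 2.87 CPM in the REC pair, 1.16 and 3.6 CPM in the SEC pair (log2 ratio 0.66 ± 0.73 SE, edgeR adjusted p = 0.635). Its groups overlapped, and its log2 ratio was 0.07 when SEC replicate 1 was left out and 1.71, past the threshold (edgeR adjusted p = 0.0277), when SEC replicate 2 was. PBS3, which joins glutamate to isochorismate on the way to SA, had 5.81 and 4.4 CPM in the REC pair, 0 and 1.61 CPM in the SEC pair, and ICS2, the second isochorismate synthase, had 5.89 and 0.801 CPM (RECs) versus 0 and 0.77 CPM (SECs). Both REC libraries of PBS3 and of ICS2 were above both SEC libraries, by a narrow margin for ICS2 (adjusted p = 0.324 and 0.333 by edgeR). A count of 0 in SEC replicate 1 allows up to 0.232 CPM. EDS5, the transporter that exports isochorismate, had overlapping groups, at 42.8 and 50.1 CPM in the REC pair, 45.2 and 67.0 CPM in the SEC pair.

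The transcription factors that switch on ICS1 did not pass either. CBP60g had 7.22 and 8.21 CPM in the REC pair, 5.17 and 3.85 CPM in the SEC pair (log2 ratio 0.78 ± 0.39 SE, edgeR adjusted p = 0.303). SARD1 had 2.91 and 4.2 CPM in the REC pair, 3.09 and 1.61 CPM in the SEC pair (log2 ratio 0.60 ± 0.61 SE, edgeR adjusted p = 0.605), with reads made uncertain by a 640 nt overlap with AT1G73790 on the opposite strand. The groups stood apart for CBP60g and overlapped for SARD1.

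EDS1 and PAD4, lipase-like partners that amplify SA signalling, lay on different sides of 0. EDS1 had 37.4 and 36.7 CPM in the REC pair, 52.8 and 46.3 CPM in the SEC pair (log2 ratio −0.42 ± 0.22 SE, edgeR adjusted p = 0.324). PAD4 had 17.3 and 21.4 CPM in the REC pair, 12.6 and 12.1 CPM in the SEC pair (log2 ratio 0.64 ± 0.28 SE, edgeR adjusted p = 0.24). Each pair of groups stood apart, in opposite orders, and neither passed the test. SAG101, the alternative partner of EDS1, averaged 20.9 CPM (RECs) and 20.4 CPM (SECs).

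Of the 8 genes of SA perception, 7 had a negative log2 fold change and none passed the main edgeR test. NPR1, the coactivator of SA-dependent genes, had 41.2 and 39.6 CPM in the REC pair, 62.3 and 62.6 CPM in the SEC pair. Its groups stood apart and its replicates were alike (log2 ratio −0.63 ± 0.21 SE, edgeR adjusted p = 0.154). NPR3, a paralogue that binds SA and acts as a corepressor, had 138.9 and 134.5 CPM in the REC pair, 192.2 and 215.5 CPM in the SEC pair (log2 ratio −0.58, edgeR adjusted p = 0.139); with the length trend removed it passed (−0.76, adjusted p = 0.0339). NPR4, the other corepressor, had 57.2 and 53.9 CPM in the REC pair, 58.7 and 89.7 CPM in the SEC pair.

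Of the TGA genes, TGA3 had 18.1 and 16.3 CPM in the REC pair, 48.6 and 35.6 CPM in the SEC pair (log2 ratio −1.29 ± 0.27 SE, edgeR adjusted p = 0.0727). It passed in 5 of 10 alternative fits, among them DESeq2 (adjusted p = 0.00507) and the length trend removed (0.0275). TGA2 was ordered the other way, at 32.8 and 31.8 CPM (RECs) versus 23.6 and 19.1 CPM (SECs) (log2 ratio 0.60, edgeR adjusted p = 0.227). TGA1 had 44.1 and 40.4 CPM in the REC pair, 42.9 and 74.3 CPM in the SEC pair, and overlapped. NIMIN1, a small protein that binds NPR1 and is itself induced by SA, had 6 counts in each REC library and 73 and 17 in the SEC libraries (log2 ratio −2.92 ± 1.03 SE, edgeR adjusted p = 0.173). NIMIN2, its relative, had between 4.62 and 11.8 CPM, with overlapping groups.

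PR1 (AT2G14610), the classic output of SA signalling, had 75 and 102 counts in the REC pair, 1766 and 335 in the SEC pair, or 5.89 and 6.81 CPM (RECs) versus 136 and 21.5 CPM (SECs). Both SEC libraries exceeded both REC libraries, and SEC replicate 1 exceeded SEC replicate 2 by 2.66 on the log2 scale. The gene missed the threshold (log2 ratio −3.63 ± 0.90 SE, edgeR adjusted p = 0.0916). It passed in 7 of 10 alternative fits, among them DESeq2 (adjusted p = 3.69e-06) and the length trend removed (0.0399), and not by limma voom (0.182). Leaving out SEC replicate 1 gave −1.76 and leaving out SEC replicate 2 gave −4.41. Removing the length trend gave a log2 ratio of −3.24. The other PR genes did not separate the cell types. PR2, a glucanase gene, had 45 and 67 counts in the REC pair, 86 and 0 in the SEC pair, and PR5, of the thaumatin family, had 1 and 41 counts in the REC pair, 74 and 12 in the SEC pair, so that the groups of each overlapped.

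The 2 members that act in the synthesis of N-hydroxypipecolic acid, the mobile signal of systemic resistance, had few counts or none. ALD1, the first enzyme, had 0 of 56369852 counts, which allows up to 0.0532 CPM. FMO1, the last enzyme, had 4 and 13 counts in RECs and 0 in both SEC libraries, at least 5.83-fold higher in RECs when the SECs are set at 3 counts over the group, and was not tested.

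Beyond the 39 genes, 85 others of the same pathways were listed and 77 could be tested. Of these, 2 were higher in RECs (2.60%, against 0.495% of all genes) and 3 higher in SECs (3.90%, against 2.18%). Both SEC libraries were above both REC libraries for 35 of them (45.5%, against 28.2%) and the reverse held for 16 (20.8%, against 29.8%). The median log2 fold change was −0.40. By DESeq2 there were 5 and 24 (6.49% and 31.2%, against 4.15% and 8.56% of all genes). With the length trend removed there were 4 and 24 (5.19% and 31.2%, against 4.65% and 9.30%). The REC shares of these fits were thus near those of all genes. When either REC library was left out there were 0 in both directions.

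The SA list of 33 had 29 tested, with 2 higher in RECs, 0 higher in SECs and 27 that did not pass. WRKY70, a factor that acts in SA signalling, stood at 69.1 and 75.1 CPM in the REC pair, 23.6 and 17.1 CPM in the SEC pair (log2 ratio 1.82 ± 0.26 SE, edgeR adjusted p = 0.0392). MES1, an esterase that frees SA from methyl salicylate, had 13.7 and 11.1 CPM in the REC pair, 1.47 and 1.93 CPM in the SEC pair (log2 ratio 2.86 ± 0.40 SE, edgeR adjusted p = 0.0384). In both, the REC libraries were above the SEC libraries. BSMT1, which makes methyl salicylate, was ordered the other way, at 146 and 119 CPM in the REC pair, 408.5 and 285.7 CPM in the SEC pair, and missed the threshold (edgeR adjusted p = 0.0563). UGT74F2, which conjugates SA to glucose, had 7 and 5 counts in the REC pair, 52 and 109 in the SEC pair (edgeR adjusted p = 0.0603). DMR6, which hydroxylates SA, had 107 and 105 CPM (RECs) versus 198 and 186 CPM (SECs) (edgeR adjusted p = 0.0731).

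The pattern list of 37 had 33 tested, with 2 higher in SECs, 0 higher in RECs and 31 that did not pass. PBL1, the kinase most like BIK1, had 15.9 and 19.0 CPM in the REC pair, 73.9 and 68.2 CPM in the SEC pair (log2 ratio −2.03 ± 0.24 SE, edgeR adjusted p = 0.0324). WRKY33, a factor phosphorylated by MPK3 and MPK6, had 320 and 369 CPM in the REC pair, 712 and 679 CPM in the SEC pair (log2 ratio −1.01 ± 0.17 SE, edgeR adjusted p = 0.0498). WRKY53, MPK11 and AT3G09830 missed the threshold (adjusted p = 0.054, 0.0621 and 0.0563 by edgeR), with both SEC libraries above both REC libraries in each. PROPEP4, named after its values were seen, was ordered against PROPEP3, at 7.85 and 7.01 CPM in the REC pair, 1.93 and 1.54 CPM in the SEC pair (edgeR adjusted p = 0.0747).

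All 15 genes of the surface list were tested, with 1 higher in SECs, 0 higher in RECs and 14 that did not pass. MLO12 had 24.4 and 19.6 CPM in the REC pair, 72.8 and 73.3 CPM in the SEC pair (log2 ratio −1.73 ± 0.24 SE, edgeR adjusted p = 0.0383). MLO6, MLO12 and MLO2, which act together toward powdery mildew, thus all had SEC libraries above REC libraries, the last without passing. The 3 genes with the next smallest p were EXO70B2, of the exocyst, SYP122, a syntaxin close to PEN1, and SNAP33, a SNARE partner of PEN1. Their log2 fold changes were −1.21, −1.50 and −0.92 (adjusted p = 0.0529, 0.0557 and 0.0657 by edgeR). CYP81F2, also named after its values were seen, modifies the indole glucosinolates on which PEN2 acts; it had 0 counts in RECs and 16 and 20 in SECs, at least 11.7-fold higher in SECs when the RECs are set at 3 counts over the group (edgeR adjusted p = 0.0952). The calls of MES1, PBL1, MLO12, WRKY33 and WRKY70 were each lost when either REC library was left out, and MES1 and WRKY33 lost theirs in 1 more fit each.

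**Figure D5:**
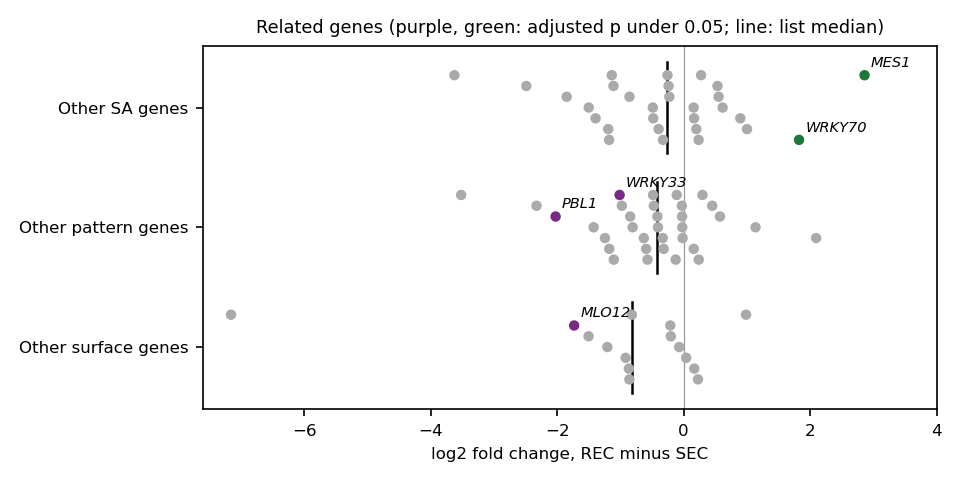
Log2 fold change, REC minus SEC, of the 77 related genes tested, in 3 lists with their medians (black lines, at −0.26, −0.42 and −0.82). MES1 and WRKY70 (green) are higher in RECs and PBL1, WRKY33 and MLO12 (purple) higher in SECs; grey points did not pass.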

How the data were processed

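Polyadenylated RNA of sorted protoplasts was measured in 4 libraries. Per the labels' protocols, cDNA was amplified for 18 cycles with a low-input kit and made into libraries that do not mark strand. The values are raw read counts per gene, as deposited by the authors; the submitters' processing notes name Trimmomatic 0.32.3, TopHat2 2.0.9, HTSeq 0.6.1, DESeq2 and the build TAIR10. The annotation and the strand setting behind the counts were not given in the sources used. The 5 closing lines that name no gene stayed out of all totals; records in no gene were 46.81% to 47.74% of records, and those with several alignments 5.64% to 7.48%, so near-identical genes are uncertain.

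The count test was that of edgeR 4.0.16 under R 4.3.3 (filterByExpr, TMM, two-sided quasi-likelihood F test, REC minus SEC, group as the only term), with Benjamini-Hochberg adjustment over 18384 genes and calls at 0.05. Standard errors were derived from the fold change and the root of its F statistic. TPM used the longest RefSeq TAIR10.1 transcript. A count of 0 was taken to allow 3 counts; such limits cover counting error only, since reads are not independent molecules. The steps were tested on simulated data. Alternatives were DESeq2 1.42.0, limma 3.58.1 voom, upper-quartile scaling, no filter, removal of the length trend, leaving out each library and a replicate term.

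The members and lists were chosen with earlier results of these data known. Full statistics are given for called members and for ICS1, EDS1, PAD4, CBP60g, SARD1, NPR1, PR1, FLS2, EFR, CERK1, BIK1, FRK1, PEN1, MLO2, PROPEP1 and PROPEP3; of the related lists, for called genes and up to 3 more with the smallest p per list. Other genes were added after their values were seen.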

Additional observations from a re-analysis of the deposited data

How the results depend on the processing

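Over all genes, the 91 called higher in RECs and 400 in SECs became 763 and 1574 by DESeq2, 280 and 836 with no filter on low counts, and 854 and 1710 with the length trend removed; upper-quartile scaling gave 254 in SECs. The members called higher in SECs, 4 in the main test, were 9, 7, 14 and 2 in the same order of settings. The related genes called higher in RECs and SECs were 5 and 24 by DESeq2 (6.49% and 31.2%, against 4.15% and 8.56% of all genes). They were 4 and 24 with the length trend removed (5.19% and 31.2%, against 4.65% and 9.30%). No filter gave 12 in SECs (14.3%, against 3.61% of all genes), and limma voom 1 in RECs (1.3%, against 0.495%). The members' median log2 fold change of −0.62 was −0.817 with the length trend removed. Leaving out 1 library at a time gave 28 to 5630 genes in RECs and 86 to 4991 in SECs, 0 to 7 and 2 to 20 members, 0 to 20 and 0 to 41 related genes, and medians of −0.674 to −0.511; fits with 1 SEC library assume that it varies like the REC pair.

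Among the members, those whose direction turned had not passed. The related genes XLG2, BKK1, CAMTA3, RBOHD and CPK28, which had not passed either, were called higher in SECs without SEC replicate 1 and higher in RECs without SEC replicate 2. PEPR2 was 0.797 by limma voom and SAG101 −0.044 with the length trend removed. Leaving out 1 library gave log2 fold changes of −0.713 to 8.858 for PR2, −5.198 to 0.888 for PR5, −0.147 to 0.257 for SAG101, −0.527 to 0.053 for EDS5, −1.104 to 0.234 for NIMIN2, −0.131 to 1.751 for PEPR1 and −1.211 to 0.301 for PEN3. For PEPR2 the range was −2.122 to 6.334. The cause was not tested.

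Whether same-numbered libraries belong together is not stated. Their deviations from the group means correlated at 0.038. This cannot decide the question, because the SEC pair differed by transcript length and the REC pair hardly did. With the replicate block, 526 and 1161 genes were called higher in RECs and SECs (2.86% and 6.32% of all genes). Members called were 0 and 8 (0% and 22.2%), and related genes 3 and 19 (3.9% and 24.7%). The log2 fold change of PEPR2 was 0.286.

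With 2 libraries a group and 2 residual degrees of freedom, a p that misses the threshold does not show that levels were alike. Counts of 0 allow up to 0.193 to 0.235 CPM per library.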
